A study of Mus musculus with 9 samples.

Results

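Genes of astrocytes and of cochlear supporting cells that handle glutamate, water and lipid were followed in whole mouse cochleae across age and long-term calorie restriction. The members are 8 genes: Gfap, Slc1a2 and Aqp4, which in the nervous system are largely restricted to astrocytes, Slc1a3, Sparcl1 and Glul, which cochlear supporting cells also express, and the apolipoprotein genes Apoe and Apod. They were chosen by name, as the probe sets whose annotation gives exactly 1 gene symbol among these 8, and this gave 23 of the 45037 probe sets and 8 of 18193 named genes on the array. All mice were male C57BL/6 with no transgene or mutation named in the labels. The young controls (YC) were 4 months old, the older controls (MC) 15 months old, and the restricted mice (CR) 15 months old after eating 62 kcal per week, against 84 in the controls, from 2 months of age, a 26% reduction. Each group had 3 arrays, and each array carried RNA pooled from 4 cochleae of 2 mice.

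Astrocytes and inner ear supporting cells clear glutamate after synaptic release. The transporters GLT-1, encoded by Slc1a2, and GLAST, encoded by Slc1a3, carry it into the cell, glutamine synthetase, encoded by Glul, converts it to glutamine, and neurons or hair cell afferents are spared prolonged exposure. In the brain GLT-1 is the main transporter of forebrain astrocytes, whereas in the cochlea GLAST is the transporter known from supporting cells around the inner hair cells and from satellite glia. Aqp4 encodes the water channel of astrocyte endfeet, which is also known from cochlear supporting cells, and Gfap the intermediate filament of astrocytes, also known from glia of the auditory nerve.

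Of the cochlear marker genes Otos, Coch, Gjb2, Gjb6, Otor and Tectb, 6 of 6 passed the signal filter described below. The arrays fell into 2 classes by median deposited signal. The 3 CR arrays and YC1 had medians from 526.8 to 626.6 (low-median arrays), and the 3 MC arrays, YC2 and YC3 had medians from 842.4 to 1103.9 (high-median arrays). All CR arrays thus lay in one class and all MC arrays in the other, so that in the comparison of CR with MC class and diet cannot be told apart. A fit with class as a term takes the class difference from YC1 against YC2 and YC3 alone, so class-adjusted values below rest on that 1 array. Values below are log2(signal + 16) after quantile normalization. A probe set was tested if its mean over all 9 arrays, CR included, lay at or above the 40th percentile of all probe sets. Of the 23 member probe sets 14 were tested, at least 1 for each gene, and the brightest probe set of a gene is given first. In whole-tissue RNA, fewer cells of a type and less RNA per cell cannot be told apart.

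The sequences just upstream of 4 members are shown because these genes code for the 2 transporters, the glutamine-forming enzyme and the apolipoprotein whose values separated the restricted arrays. Each is the 250 bases before the gene's start in RefSeq on GRCm38.p6, read 5′ to 3′ in the direction of the gene. Slc1a2 lies on the plus strand (chr2:102706188-102706437), Slc1a3 on the minus strand (chr15:8710808-8711057), Glul on the plus strand (chr1:153899679-153899928) and Apod on the minus strand (chr16:31314809-31315058). Capitals mark every match to 1 of 5 motifs searched on both strands.
Slc1a2: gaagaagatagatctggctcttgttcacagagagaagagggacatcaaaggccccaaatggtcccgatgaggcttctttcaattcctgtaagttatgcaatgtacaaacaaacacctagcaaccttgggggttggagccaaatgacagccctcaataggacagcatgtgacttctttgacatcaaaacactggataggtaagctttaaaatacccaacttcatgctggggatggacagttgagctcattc
Slc1a3: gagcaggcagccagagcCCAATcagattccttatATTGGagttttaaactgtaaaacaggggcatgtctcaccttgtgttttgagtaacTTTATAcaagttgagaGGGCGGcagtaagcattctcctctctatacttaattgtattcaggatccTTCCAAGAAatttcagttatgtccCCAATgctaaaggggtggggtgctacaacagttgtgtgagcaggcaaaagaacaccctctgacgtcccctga
Glul: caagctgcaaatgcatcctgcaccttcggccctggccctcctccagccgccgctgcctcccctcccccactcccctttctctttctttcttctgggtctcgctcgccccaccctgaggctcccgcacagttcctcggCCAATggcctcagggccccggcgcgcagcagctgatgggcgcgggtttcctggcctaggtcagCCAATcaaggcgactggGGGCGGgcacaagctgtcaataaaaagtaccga
Apod: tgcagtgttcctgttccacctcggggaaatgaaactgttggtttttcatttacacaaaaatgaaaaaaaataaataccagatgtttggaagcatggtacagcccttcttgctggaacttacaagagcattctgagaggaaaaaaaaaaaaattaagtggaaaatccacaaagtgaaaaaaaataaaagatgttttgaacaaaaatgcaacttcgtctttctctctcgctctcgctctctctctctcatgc
The motifs were the TATA box TATAAA, the GC box GGGCGG, the CCAAT box CCAAT, the AP-1 site TGANTCA and the STAT site TTCNNNGAA, where N is any base. They occurred in 12.4%, 32.7%, 33.8%, 6.75% and 7.02%, in that order, of 32851 windows of the same length in the same table. The Slc1a3 window held 3 CCAAT matches, a GC box, a TATAAA match on the opposite strand and a STAT match 96 bases before the start, none of them overlapping. The Glul window held 2 CCAAT matches, at 113 and 50 bases before the start, and a GC box at 33 bases. The Slc1a2 and Apod windows held none of these letters. The 4 windows also differed in base composition, with 64.8% G and C for Glul, 44.8% each for Slc1a2 and Slc1a3 and 36.4% for Apod, against a median of 52.4% over all windows. A gene can have starts other than the one listed, and a match is a description of letters only.

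Slc1a2, the astrocyte glutamate transporter GLT-1, had the widest range of the members. Its brightest probe set (1438194_at) gave normalized log2 signals of 11.63, 6.93 and 10.38 in YC1 to YC3, of 7.16, 10.23 and 6.91 in MC1 to MC3 and of 12.66, 12.52 and 12.23 in CR1 to CR3. In deposited signal units the CR arrays read 7574, 6615 and 5208, and the lowest reading was 144.9, in MC3. The restricted arrays were all above the 6 control arrays and close to each other (SD 0.22), while both control groups were spread over several log2 units (SD 2.43 in YC and 1.85 in MC). From MC to CR it differed by a log2 change of 4.37 ± 1.12 (SE, n = 3 per group), with a 95% interval of 1.90 to 6.83 on the log2 scale, and it did not pass (limma adjusted p = 0.15). This log2 change is 20.6-fold, and it was 1.39 with array class and 1.56 with the array median in the fit. The difference from YC to MC was -1.54 ± 1.12 with overlapping groups (limma adjusted p = 1), and it ran from -2.95 without YC2 to -0.54 without YC1. Against YC the restricted arrays differed by 2.83 ± 1.12 (limma adjusted p = 0.457). YC1, the young control in the low-median class, lay 0.84 below the CR mean.

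The other 4 probe sets of Slc1a2 were too dim to be tested, with deposited signals between 35.3 and 891.8 over all arrays. From MC to CR they differed by log2 changes of 0.26 (1439940_at), 1.82 (1451627_a_at), 1.77 (1459014_at) and -0.45 (1433094_at). Of these, 1459014_at alone separated the CR from the MC arrays. The large Slc1a2 difference therefore rests on 1 probe set.

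Slc1a3, the supporting cell and astrocyte transporter GLAST, was higher in every restricted array than in any control array by its brightest probe set (1443749_x_at). Normalized log2 signals were 11.78, 12.18 and 11.97 in YC, 11.08, 11.03 and 11.51 in MC and 12.52, 12.38 and 12.55 in CR, each in order of replicate. The MC arrays were the lowest of the 3 groups, and neither neighbouring pair of groups overlapped. CR exceeded MC by 1.28 ± 0.23 on the log2 scale, with a log2 interval of 0.77 to 1.78 (limma adjusted p = 0.0841), and this difference is 2.42-fold. With age it was -0.77 ± 0.23, with an interval of -1.27 to -0.26 (limma adjusted p = 1). YC1 was the lowest of the young arrays for this probe set, and fitting array class beside the groups gave a value from MC to CR of 1.57, in which YC1 alone sets the class difference. The suffix of this probe set marks sequences shared with other transcripts, so cross-hybridization to them cannot be told apart here.

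The second tested probe set of Slc1a3 (1452031_at) had the same direction with a larger spread. It read 10.78, 6.84 and 9.89 in YC, 9.29, 8.82 and 7.77 in MC and 11.40, 11.37 and 11.08 in CR. Its log2 change from MC to CR was 2.66 ± 0.85 (limma adjusted p = 0.187) and from YC to CR 2.11 ± 0.85 (limma adjusted p = 0.458). Unlike the brightest probe set, it had YC1 as the highest control array, and the age difference was -0.55 ± 0.85 with overlapping groups. Of the 4 untested probe sets, 1426340_at differed between MC and CR by 3.67 and 1426341_at by 0.54, each without overlap, 1439072_at by -0.63, and 1440491_at by -1.78 with every CR array below every MC array.

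**Figure D1:**
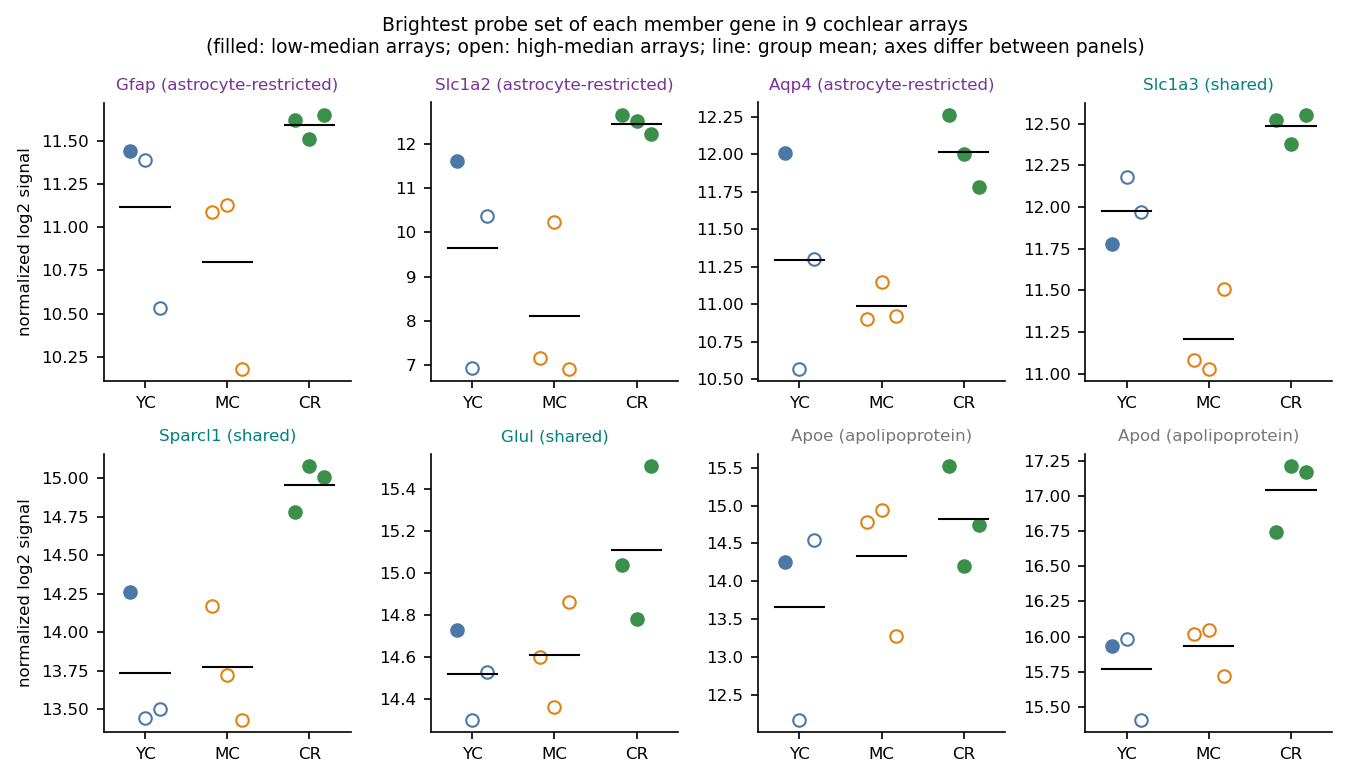
Normalized log2 signal (vertical axis, scale differing between panels) of the brightest probe set of each member gene in the 3 YC, 3 MC and 3 CR arrays, with a line at each group mean; filled points are low-median and open points high-median arrays. The CR arrays lie above all 6 control arrays for Gfap, Slc1a2, Slc1a3, Sparcl1 and Apod, and YC1 lies among or next to them for Aqp4.

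Glul, which encodes the enzyme that turns the transported glutamate into glutamine, read 14.73, 14.30 and 14.53 in YC, 14.60, 14.36 and 14.86 in MC and 15.04, 14.78 and 15.51 in CR on its brightest probe set (1426236_a_at). CR2 lay below MC3, so the older groups overlapped, while all CR arrays were above all YC arrays. Restricted and older control arrays differed by 0.50 ± 0.22 (interval 0.02 to 0.98, limma adjusted p = 0.258), and from YC to CR 0.59 ± 0.22 (limma adjusted p = 0.457). The first of these values was 1.41 with median centring, 0.79 in the table as deposited, 0.18 with array class in the fit and 0.30 without CR3. With age it was 0.09 ± 0.22, with an interval of -0.39 to 0.57. The second probe set (1426235_a_at) gave 0.28 ± 0.23 from MC to CR and 0.03 ± 0.23 with age, with overlapping groups in both.

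Gfap, the astrocyte filament, was measured by 3 probe sets, all tested. The brightest (1426508_at) read 11.44, 11.39 and 10.53 in YC, 11.09, 11.13 and 10.18 in MC and 11.62, 11.51 and 11.65 in CR. The CR arrays were above every control array but only just above YC1, and their SD was 0.07 against 0.51 in YC and 0.54 in MC. The Gfap difference between MC and CR was 0.79 ± 0.35 (interval 0.03 to 1.56, limma adjusted p = 0.258), with age -0.32 ± 0.35, and from YC to CR 0.47 ± 0.35. The second probe set (1426509_s_at) gave 0.55 ± 0.44 and the third (1440142_s_at) 0.81 ± 0.57 from MC to CR, both with overlapping groups because MC3 was high, at 11.64 and 9.84. On the brightest probe set the same array MC3 was the lowest of all 9, so the Gfap probe sets ordered the older controls differently. For age the other 2 probe sets gave 0.24 ± 0.44 and 0.01 ± 0.57.

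Aqp4, the water channel of astrocyte endfeet and of some supporting cells, read 12.01, 10.57 and 11.30 in YC, 10.90, 11.15 and 10.92 in MC and 12.26, 12.00 and 11.78 in CR on its brightest probe set (1434449_at). YC1 lay level with CR2 and above CR3, whereas the MC arrays and the other young arrays were all lower. Its log2 change from MC to CR was 1.02 ± 0.35 (interval 0.26 to 1.78, limma adjusted p = 0.194) and from YC to CR 0.72 ± 0.35 (limma adjusted p = 0.463). Between CR and YC1 alone, within the low-median arrays, it was 0. The second tested probe set (1425382_a_at) read 9.46, 9.58 and 10.44 in YC, 9.28, 9.06 and 7.18 in MC and 9.86, 9.81 and 10.42 in CR. On it the MC arrays were below both other groups, with -1.32 ± 0.59 for age (limma adjusted p = 1) and 1.52 ± 0.59 from MC to CR (limma adjusted p = 0.225), and CR differed from YC by 0.20 ± 0.59. The untested probe set 1447745_at went the other way, with -1.41 from MC to CR and overlapping groups.

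Sparcl1 encodes hevin, a matricellular protein that astrocytes release and that promotes synapse formation, and it is also expressed in cochlear supporting cells and vessels. Its 1 probe set (1416114_at) read 14.26, 13.44 and 13.50 in YC, 14.17, 13.72 and 13.43 in MC and 14.78, 15.08 and 15.01 in CR. The CR arrays stood clear of all controls, whose groups covered nearly the same range. Sparcl1 was higher in CR than in MC by 1.19 ± 0.26 on the log2 scale (log2 interval 0.62 to 1.75, limma adjusted p = 0.128), which is 2.28-fold. From YC to CR it was 1.22 ± 0.26 (limma adjusted p = 0.342). With age it was 0.04 ± 0.26. With array class in the fit the change from MC to CR was 0.40, and between CR and YC1 alone it was 0.70.

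Apod and Apoe encode lipid carriers: apolipoprotein D, a lipocalin of glia, fibroblasts and myelinating cells, and apolipoprotein E, the main lipoprotein component released by astrocytes and macrophages. Apod (1416371_at) read 15.93, 15.98 and 15.41 in YC, 16.02, 16.05 and 15.72 in MC and 16.74, 17.21 and 17.17 in CR. Every CR array was above every control array, and the control groups overlapped. Apod was higher in CR than in MC by 1.11 ± 0.20 on the log2 scale (interval 0.67 to 1.55, limma adjusted p = 0.0841). From YC to CR the log2 change was 1.27 ± 0.20 (log2 interval 0.83 to 1.71, limma adjusted p = 0.16), which is 2.41-fold and placed this probe set at rank 8 of 27022 by p in that comparison. Its second probe set (1444564_at) gave 1.31 ± 0.31 in each of these comparisons, also with no overlap. Between CR and YC1 alone Apod differed by 1.11 on the brightest probe set, the largest such value among the 8 genes.

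Apoe (1432466_a_at) read 14.25, 12.17 and 14.55 in YC, 14.78, 14.94 and 13.28 in MC and 15.52, 14.20 and 14.74 in CR. YC2 and MC3 were low in their groups, and the 3 groups overlapped. The log2 change from MC to CR was 0.48 ± 0.62 (interval -0.88 to 1.85, limma adjusted p = 0.676), from YC to CR 1.16 ± 0.62 and with age 0.68 ± 0.62, and the first of these was -0.05 without MC3. Apod and Apoe thus differed in how the CR arrays stood to the controls, but the difference between the 2 genes was not tested.

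**Figure D2:**
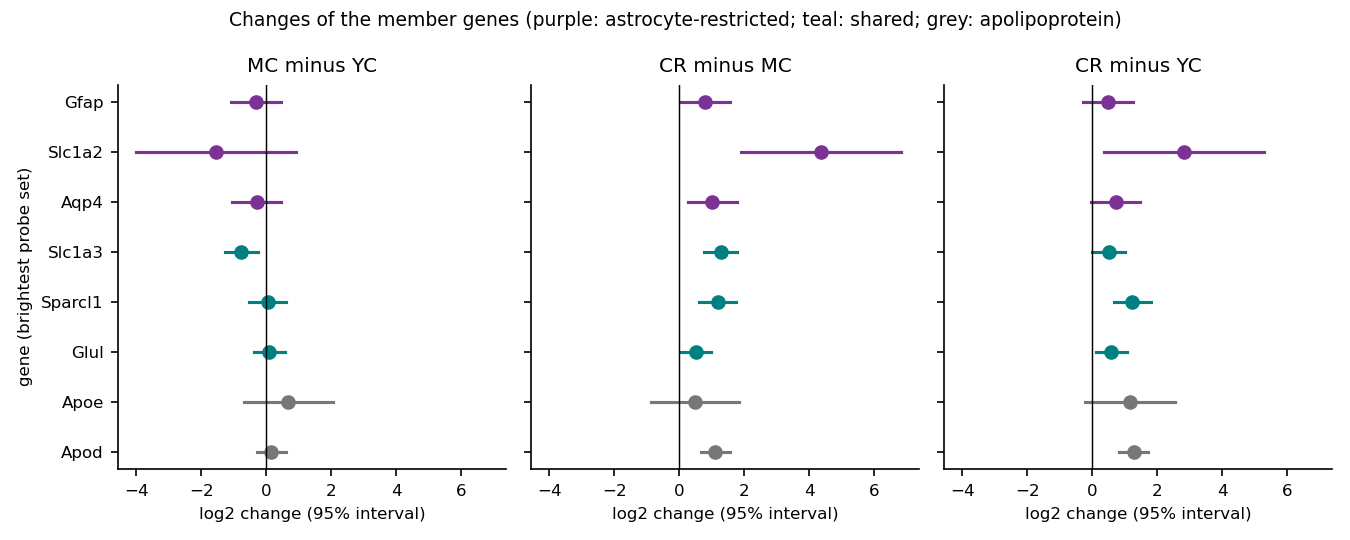
Log2 change (horizontal axis) with its 95% interval from limma for the brightest probe set of each of the 8 member genes, in 3 panels, for age (MC minus YC), restriction (CR minus MC) and both (CR minus YC). All 8 changes lie above 0 from MC to CR and from YC to CR, and the interval of Slc1a2 is the widest.

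From MC to CR, 14 of 14 tested member probe sets and 8 of 8 genes by their brightest probe set had a positive log2 change, against 54.7% of the 27022 probe sets tested. The median log2 change was 1.07 over the member probe sets and 0.08 over all. No member probe set passed at an adjusted p under 0.05 in limma, where 0.0925% of all probe sets passed, and 10 of 14 had an unadjusted p under 0.05 with higher values, against 8.99% of all. The CR arrays were above all MC arrays for 9 member probe sets, against 19.5% of all. Because the signal filter took in the CR arrays, high CR values could bring a probe set into these counts and low CR values could keep one out. The counts are thus not independent of the direction of change. Slc1a2 1438194_at averaged 9.65 in YC, 8.1 in MC and 12.47 in CR, and Slc1a3 1452031_at 9.17, 8.62 and 11.28. Of those left out, Aqp4 1447745_at averaged 9.29, 9.16 and 7.75, and Slc1a3 1439072_at 9.12, 8.81 and 8.18. With no filter 19 of 23 were higher, against 50.8% of all. Of the 9 untested member probe sets, 5 were higher and 4 lower in CR than in MC. Slc1a3 and Apod had the smallest adjusted p of the members, and Apoe the largest. The count of called member probe sets differed between fits: it was 8 without YC2, where 15 were tested, and 3 without YC1. It was 7 with only MC and CR in the fit, 7 with array weights and 0 on leaving out any other array. Across all probe sets the same 4 fits called 1147, 209, 1846 and 3397, and the estimation of the array weights in the last of them stopped before it reached its convergence tolerance. With array class as a term no member was called, 10 of 14 member probe sets were positive, and Aqp4 and Apoe had values of -0.06 and -0.40.

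With age no member probe set passed and no probe set of the array did (0% called in limma, smallest adjusted p 0.927, 915 with an unadjusted p under 0.05). Of the 14 member probe sets 7 were higher and 7 lower at 15 months, with a median log2 change of 0.00, against 52.3% higher and a median of 0.02 over all. The MC arrays were below all YC arrays for 2 member probe sets, the brightest of Slc1a3 and the second of Aqp4, as for 2.92% of all, and these 2 were also the members with an unadjusted p under 0.05, against 2.03% of all in this direction. Within the high-median arrays, where 3 MC arrays met YC2 and YC3, Slc1a3 differed by -0.87 and Slc1a2 by -0.55, while Aqp4 differed by 0.06.

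Between the 4-month controls and the restricted 15-month mice, which differ in both age and diet, all 14 member probe sets were higher in CR, against 54.7% of all, with a median of 0.80 against 0.08. None passed, and none of the array did (0% called in limma, smallest adjusted p 0.16, 2910 with an unadjusted p under 0.05). An unadjusted p under 0.05 with higher values was reached by 7 members, against 5.21% of all, and 9 separated the groups upward, against 11.4% of all. Here too high CR values could bring a probe set through the signal filter, and low CR values could keep one out. With no filter 17 of 23 were higher, against 50.9% of all. Of the 9 untested member probe sets, 3 were higher and 6 lower in CR than in YC. Without YC1 the count of called members in this comparison was 3 and that of all probe sets 328. Within the low-median arrays, CR exceeded YC1 by 0.71 for Slc1a3, 0.38 for Glul, 0.16 for Gfap and 0.57 for Apoe. Each pair of the 3 comparisons shares a group of arrays, so their values are not independent of each other.

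**Figure D3:**
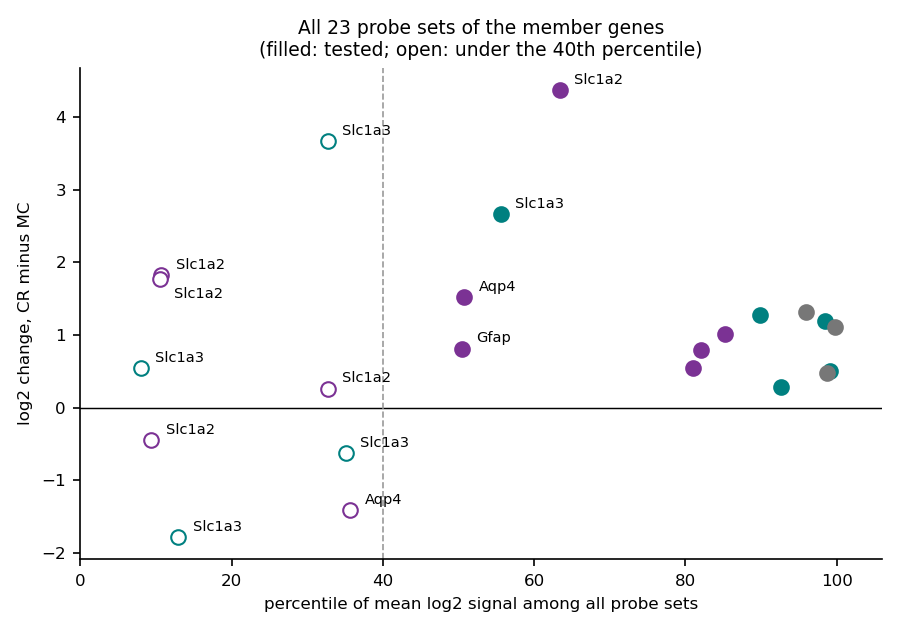
Log2 change from MC to CR (vertical axis) of all 23 member probe sets against the percentile of their mean signal among all probe sets (horizontal axis); purple marks astrocyte-restricted, teal shared and grey apolipoprotein genes, filled points were tested, and genes are named beside dim or far points. The 14 tested probe sets lie above 0, and of the 9 untested ones 5 lie above and 4 below.

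Astrocyte-restricted and shared genes were then compared. The class names refer to the nervous system, since Aqp4 is also known from cochlear supporting cells and Gfap from glia of the auditory nerve. The comparison therefore does not set astrocytes against supporting cells. The 3 astrocyte-restricted genes had a mean log2 change of 2.06 from MC to CR and the 3 shared genes one of 0.99, a difference of 1.07. Without Slc1a2, a choice made after its values were seen, the mean of Gfap and Aqp4 was 0.91 and the difference -0.08. With age the means were -0.72 and -0.21, and from YC to CR 1.34 and 0.77. Without Slc1a2 the differences between the classes were -0.09 and -0.18 in these comparisons.

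By array, the mean centred log2 signal of the astrocyte-restricted genes was 0.80, -1.26 and -0.16 in YC, -1.17, -0.05 and -1.55 in MC and 1.29, 1.12 and 1 in CR. The shared genes gave -0.01, -0.29 and -0.26 in YC, -0.31, -0.56 and -0.33 in MC and 0.52, 0.48 and 0.76 in CR. By their brightest probe sets the astrocyte-restricted genes thus placed YC1 near the CR arrays, and the shared genes placed it nearer the other controls. The latter depends on the probe set used for Slc1a3. On its second tested probe set YC1 was the highest control array (10.78), as it also was for Sparcl1 (14.26). The difference of the 2 means was -0.02 ± 0.90 (SD, n = 3) in YC, -0.53 ± 0.91 in MC and 0.55 ± 0.28 in CR, and all 3 CR values lay within the range of the control arrays, whose highest was 0.81 in YC1. With array class as a term, estimated from YC1 against YC2 and YC3, the difference between astrocyte-restricted and shared genes from MC to CR was -0.17. These are descriptions, since the genes were chosen with results of these data known.

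**Figure D4:**
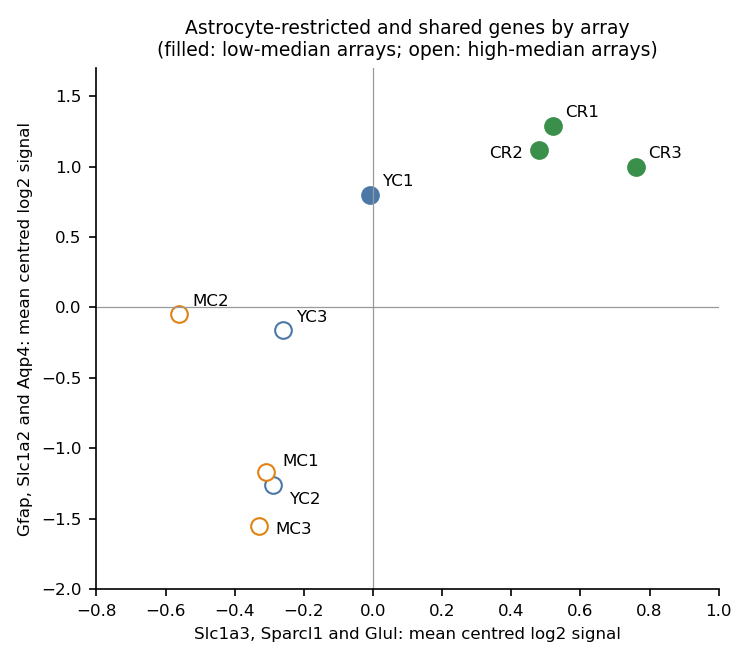
Mean centred log2 signal of Gfap, Slc1a2 and Aqp4 (vertical axis) against that of Slc1a3, Sparcl1 and Glul (horizontal axis) in each of the 9 arrays; blue marks YC, orange MC and green CR, and filled points are low-median arrays. The 3 CR arrays lie at 0.48 or higher on the horizontal axis, and YC1 reaches 0.80 on the vertical axis but -0.01 on the horizontal one.

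Other genes of the same cells and pathways were taken from fixed lists, each gene by its brightest tested probe set. Of 17 tested astrocyte genes outside the members (of 20 listed), 16 were higher in CR than in MC, against 54.7% of all probe sets, and 10 were so without overlap, against 19.5% of all. Their median log2 change was 0.69, and none was called. Those with the smallest p were Aldoc, the brain form of aldolase (1.73 ± 0.28, limma adjusted p = 0.0616), and Fam107a (1.46 ± 0.35, limma adjusted p = 0.146). With age Aldoc differed by -0.53 ± 0.28 and the claudin gene Cldn10 by -0.62 ± 0.38, and 8 of the 17 were higher. Summed signals of the list were 180012 to 185434 in CR, 89497 to 117055 in MC and 89777 to 135211 in YC. Gjb6, Gja1, S100b and Fgfr3 in this list are also known from cochlear supporting cells.

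Of 14 tested genes of the astrocyte reaction to injury (of 15 listed), 9 were higher in CR than in MC, with a median of 0.13, and none was called. Nes, the progenitor filament nestin, differed by -1.42 ± 0.63 and the metalloreductase gene Steap4 by 0.94 ± 0.45 (limma adjusted p = 0.261 and 0.289). With age Serpina3n, a secreted protease inhibitor, differed by 1.43 ± 0.68 and the small heat shock gene Hspb1 by 0.37 ± 0.23.

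Among 16 tested genes of glutamate and glutamine handling (of 22 listed), 12 were higher and 4 lower in CR than in MC, with a median of 0.41 and none called. Kcnj10, the potassium channel that serves glial uptake and the stria vascularis, differed by 1.76 ± 0.42 and Gad1, which makes GABA from glutamate in inhibitory neurons, by 3.29 ± 0.93 (limma adjusted p = 0.146 and 0.171). With age Got2, the mitochondrial aspartate aminotransferase, differed by 0.36 ± 0.16 with no overlap, and Kcnj10 by -0.69 ± 0.42. The cerebellar transporter gene Slc1a6, the hair cell vesicular transporter gene Slc17a8 and the receptor genes Grm3 and Grm5 were not among the tested genes.

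Of 14 cochlear supporting cell genes tested (of 20 listed), 10 were higher in CR than in MC, with a median of 0.55 and none called. The gap junction gene Gjb2 differed by 0.98 ± 0.29 and Epyc, a small proteoglycan, by 0.99 ± 0.30 (limma adjusted p = 0.175 and 0.177). With age the members with the smallest p were Lfng, a Notch modifier, at -0.90 ± 0.70 and Lgr5, a progenitor marker, at -0.78 ± 0.62. Their summed signals were 77485 to 91356 in CR, 70019 to 86498 in MC and 65757 to 77216 in YC, so the older groups overlapped. Of 11 satellite glia and Schwann cell genes tested, 4 were higher and 7 lower in CR, with a median of -0.18. Gfra3, a receptor of the glial cell line-derived factor family, differed by -1.33 ± 0.39 and Drp2, of the Schwann cell dystroglycan complex, by -0.70 ± 0.26, while with age Drp2 differed by 0.80 ± 0.26 and Fabp7 by 0.99 ± 0.44.

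Most markers of other brain cells also had higher values in the CR than in the MC arrays, and none of them was called. Of 10 tested oligodendrocyte genes (of 16 listed), 10 were higher in CR than in MC, with a median of 0.81, and their summed signals were 41228 to 46028 in CR, 26261 to 28841 in MC and 22165 to 37223 in YC. Cldn11, also a claudin of strial basal cells, differed by 1.89 ± 0.47 and Mobp, a protein of central myelin, by 1.11 ± 0.36, and with age Gpr37 differed by -0.53 ± 0.38 and Opalin by -1.01 ± 0.78. Of 16 tested cerebellar and brainstem neuron genes (of 20 listed), 15 were higher in CR, with a median of 1.18, and the sums were 52955 to 107600 in CR, 26394 to 30472 in MC and 22056 to 43517 in YC. Car8, of Purkinje cells, differed by 2.61 ± 0.46 (limma adjusted p = 0.0804) and Gng13 by 4.72 ± 1.08, and with age Car8 differed by -1.12 ± 0.46 and Zic2 by -1.33 ± 0.76. No signal in the table was 0 (lowest 0.5). Mog, Hapln2 and Olig2 of the oligodendrocyte list and Hoxb5 and Slc6a5 of the neuronal list were among the genes not tested. The part of brain tissue in the higher values of Gfap, Slc1a2, Aqp4, Slc1a3, Sparcl1 and Glul was not tested.

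Skeletal muscle genes had lower values: 16 of 16 were lower in CR than in MC, with a median of -2.18, and 12 of them were called. No probe set of the array was called, these included, with median centring, no variance trend, the replicate block, array class or array median in the fit, or without MC1, MC3, CR2 or CR3. Myh2 fell by 4.31 ± 0.43, Atp2a1 by a log2 change of -1.95 ± 0.25 and Eno3 by one of -2.13 ± 0.28 (limma adjusted p = 0.0233, 0.0357 and 0.0357). Their sums were 291455 to 410981 in CR and 750849 to 1515316 in the controls, and with age Myh2 differed by 1.22 ± 0.43 and Pygm by 0.77 ± 0.38. The part of the lower muscle signal in the members' higher values was not tested.

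Relatives of Aqp4 and of the apolipoproteins were divided in direction. Of 13 water channel and dystrophin complex genes, 7 were higher and 6 lower in CR than in MC (median 0.04), with Aqp9, a channel for water and glycerol, at -0.83 ± 0.31 and Utrn, the utrophin gene, at 0.81 ± 0.45. With age Aqp2, the collecting duct channel also known from the endolymphatic sac, differed by -1.51 ± 0.57 and Aqp3 by -0.52 ± 0.40. Of 13 apolipoprotein and lipid carrier genes, 6 were higher and 7 lower in CR (median -0.09), with Clu, the clusterin gene, at 0.48 ± 0.17 and Vldlr, a lipoprotein receptor, at -0.73 ± 0.27. With age Apoa2 differed by 0.99 ± 0.72 and Apom by 0.62 ± 0.67. No gene of these 2 lists was called. At an unadjusted limma p under 0.05, the counts higher and lower in CR than in MC were 8 and 1 for other astrocyte genes, 0 and 1 for injury reaction genes, 3 and 2 for glutamate handling and 3 and 2 for supporting cell genes. They were 1 and 3 for satellite glia and Schwann cell genes, 4 and 0 for oligodendrocyte genes, 10 and 0 for cerebellar and brainstem neuron genes, 0 and 1 for water channel genes and 1 and 1 for lipid carrier genes. Of all probe sets tested 8.99% were higher and 9.54% lower at that p.

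**Figure D5:**
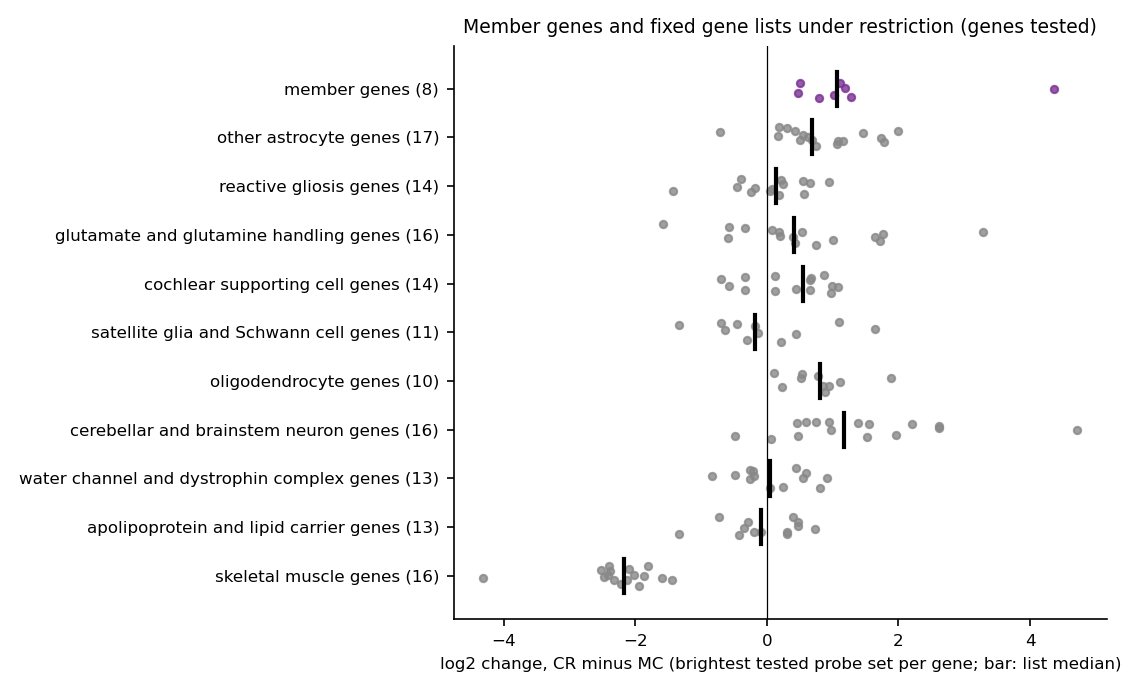
Log2 change from MC to CR (horizontal axis) of the 8 member genes (purple) and of the genes of each fixed list (grey), each gene a point and each list's median a bar, with the number of genes tested in parentheses. The member median is 1.07, cerebellar and brainstem neuron genes have a median of 1.18 and skeletal muscle genes one of -2.18.

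Genes whose signal followed each member most closely over the 9 arrays were found by Pearson's r among 13694 other named genes, as a description, since the arrays share their class and group. For Slc1a2 they were Orc3 (r = 0.987) and Rala (0.986), and for Aqp4 Abhd3 (0.981) and Tnfrsf19 (0.977). For Gfap they were Lancl3 (0.961) and Tshz3 (0.957), for Slc1a3 the channel gene Trpm3 (0.954) and Tsfm (0.942), and for Sparcl1 the calretinin gene Calb2 (0.971) and Clip3 (0.969). Glul was followed by the matrix gene Prelp (0.955) and Csad (0.893), Apoe by Tpgs1 (0.975) and Sod3 (0.968), and Apod by Nap1l2 (0.976) and Dnase1 (0.973). All 16 had log2 changes from MC to CR between 0.44 and 1.88. No gene stood among the nearest 2 of more than 1 member.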

How the data were processed

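RNA of whole cochleae was hybridized as biotin-labelled cRNA to 9 arrays of 1 colour, and the submitters' processing notes name GCOS 1.3. Each deposited value is the intensity of a probe set on a linear scale, and the authors had scaled the arrays so that each array's mean, trimmed by 2% at each end, was 1493.6 to 1496.4. No source used here names the signal algorithm or detection calls. Array medians differed 2.1-fold, so log2(signal + 16) values were quantile normalized, a scale on which folds of dim probe sets are understated. The 27022 probe sets whose mean reached the 40th percentile were fitted in limma 3.58.1 under R 4.3.3 (lmFit on all 9 arrays, eBayes with a variance trend), with Benjamini-Hochberg adjustment over all of them and a threshold of 0.05. Standard errors (median 0.43) and intervals come from this fit, and their precision is limited by the number of arrays. The script was tested on simulated data.

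Of the probe sets, 34945 had 1 symbol in a platform annotation (34741 updated through RefSeq gene IDs), 932 had several and 9160 are unnamed here. RefSeq upstream windows were matched by symbol and, after those on 1 chromosome were set aside, were kept for 6 of the 8 members. Members, lists and alternatives were chosen with earlier results of these data known. Every member probe set is named. From each list the text names up to 3 called genes with the smallest p, or else the 2 with the smallest p, for age and restriction, and for each member the 2 genes with the highest r; the 6 cochlear markers were added after the data were seen. Alternatives were pseudocounts of 1 and 64, no filter or the 60th percentile, median centring, no normalization, array weights, no variance trend, fits of the compared groups alone, a replicate block, array class or median in the fit, comparisons within a class, each array left out, and the mean of a gene's probe sets. Classes divide the arrays at the widest gap between their medians, and the labels give no batch.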

Additional observations from a re-analysis of the deposited data

How the results depend on the processing

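No alternative gave a called member with age. From MC to CR the count of called member probe sets, 0 as reported, was 7 with only the compared groups. It was also 7 with array weights, whose estimation did not reach its convergence tolerance. On leaving out 1 array, when 14 to 16 member probe sets were tested, it ran from 0 to 8. From YC to CR it was 0 as reported and ran from 0 to 3 on leaving out 1 array. The difference between astrocyte-restricted and shared genes from MC to CR, 1.07 as reported, was -0.17 with array class in the fit, -0.10 with the array median in the fit and -0.08 without Slc1a2, which was added after seeing the data. Of the single-gene changes, 19 turned sign. From MC to CR these were Aqp4 (-0.06) and Apoe (-0.40) with array class and Apoe (-0.79) with the array median, and on leaving out 1 array Apoe ran from -0.05 to 0.80. With age they were Aqp4 with array class and within the high-median arrays (0.06 each), Sparcl1 (-0.26), Glul (-0.17) and Apod (-0.06) with median centring, Sparcl1 (-0.05) in the table as deposited and Glul (-0.02) with array weights. On leaving out 1 array the age values ran from -0.69 to 0.06 for Aqp4, -0.16 to 0.30 for Sparcl1, -0.04 to 0.21 for Glul, -0.07 to 1.20 for Apoe and -0.03 to 0.26 for Apod. The cause was not tested. Median centring moved the median change of all probe sets from 0.08 to 0.58 from MC to CR, with 71.7% in place of 54.7% higher, and from 0.02 to -0.15 with age, with 35.7% in place of 52.3% higher. All 14 member probe sets were higher in CR than in MC on that scale and in the table as deposited. With array class in the fit 10 of 14 were higher, and with the array median 12 of 14. Without MC3 13 of 14 were higher, without CR1 15 of 16 and without CR3 14 of 15. A comparison of CR with MC within a class could not be made. With the replicate number as a replicate block, 0 member probe sets were called in each comparison. Arrays of the same number shared deviations at r = -0.29 to 0.27 and those of other numbers at -0.24 to 0.28. These ranges show no pairing by number, but with 3 arrays per group they cannot exclude one. The 9 untested member probe sets, like the tested ones, have no detection calls. Their mean signals were low, and their values, whether higher or lower in CR, give no reliable direction. Not all were dim in every group. Slc1a3 1426340_at read 1764.7, 1455.2 and 1851.4 in CR1 to CR3, against 606.5, 47.6 and 123 in MC. Aqp4 1447745_at read 1076.3, 719.1 and 400.8 in MC and 1245.7 in YC2, against 67.9, 502.4 and 94.6 in CR. Slc1a3 1439072_at read 1626.9 in YC2 and 905.1 in MC3, against 47.6, 387.9 and 393.8 in CR. None of these was tested.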
